A study of Mus musculus with 38 samples.

Results

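The 10 genes described here, Fkbp5, Tsc22d3, Zbtb16, Sgk1, Per1, Klf9, Ddit4, Pdk4, Mt1 and Mt2, are all known to be induced by glucocorticoid hormones. They were chosen by gene symbol from the 55487 identifiers of a raw count table of mouse kidney RNA-Seq, and each symbol matched 1 identifier. In build GRCm38, to which the reads were aligned, the gene of Fkbp5 lies at chr17:28399094-28517527, Tsc22d3 at chrX:140539528-140600659, Zbtb16 at chr9:48654297-48836222 and Sgk1 at chr10:21882184-21999903. Per1 lies at chr11:69095217-69109960, Klf9 at chr19:23141226-23168134, Ddit4 at chr10:59949669-59951834 and Pdk4 at chr6:5483351-5496309. Mt1 (chr8:94179082-94180327) and Mt2 (chr8:94172664-94173568) are neighbours. They were proposed with earlier results of these counts known, so the number of them that passed a test is a description and supports nothing by itself.

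Fibroblast growth factor 23 (FGF23), a phosphate-regulating hormone made by bone cells, was given to mice with kidney disease to learn how it changes the kidney. In the anti-GBM experiment, male C57BL/6JRj mice were immunised with sheep IgG in Freund's adjuvant and then received nephrotoxic serum, which attacks the glomerular basement membrane. Healthy control mice received phosphate-buffered saline as vehicle, and the methods text does not say whether they were also immunised. Mice were 10 weeks old at the end, and both diseased and healthy mice received recombinant human FGF23, 1 µg intravenously each day for 6 days, or vehicle. By the labels, the 4 groups held 4 healthy vehicle, 4 anti-GBM vehicle, 3 healthy FGF23 and 3 anti-GBM FGF23 mice. The study's figure legends differ and give 3 for the anti-GBM groups and 4 for the healthy groups. In the Adriamycin experiment, female BALB/c mice, also 10 weeks old, received a single intravenous injection of Adriamycin (doxorubicin), which injures podocytes, or its saline vehicle, and then 1 injection of 1 µg FGF23 or vehicle; the 4 groups held 4 mice each. In the third experiment, precision-cut kidney slices (PCKS), thin slices with part cortex and part medulla, came from 23-week-old male DBA/2J mice fed adenine, which causes tubular injury. The 4 FGF23 slices were cultured with 200 ng/mL FGF23 and the 4 vehicle slices without it. The labels give 1 h of exposure, whereas the study's text gives 24 h. There were no slices from disease-free mice. The slices of a group are described as biologically independent, and whether a vehicle and an FGF23 slice shared an animal is not stated. Mice were killed 24 h after their last dose, and no source used here gives the time of day.

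Glucocorticoids (corticosterone in the mouse) leave the adrenal cortex in a daily rhythm and in bursts under stress. In the target cell they bind the glucocorticoid receptor, which is held ready by heat shock protein 90 and its cochaperones, moves to the nucleus and binds response elements near its target genes. Some targets feed back on the receptor, others carry anti-inflammatory, metabolic or salt-transporting effects. All 10 genes also answer to other inputs, among them the circadian clock, fasting, hypoxia, metals and inflammatory cytokines. No hormone level was measured in the libraries.

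For 4 of the genes the bases before a transcription start are shown, because these stretches hold matches to the letters that the receptor, the metal-responsive factor or the clock factors are known to recognise. The sequences come from RefSeq (mouse build GRCm38.p6), run 5′ to 3′ on the gene's strand from position -250 to -11 before the start, and match the build of the counts. Capitals mark AGAACA and TGTTCT with 3 bases between them in Sgk1, GNACA and TGTNC with 3 bases between them and TGCACNC in Mt1, TGCGCNC and TGCACNC in Mt2, and CACGTG in Per1.
Sgk1, chr10:21993640-21993879, plus strand: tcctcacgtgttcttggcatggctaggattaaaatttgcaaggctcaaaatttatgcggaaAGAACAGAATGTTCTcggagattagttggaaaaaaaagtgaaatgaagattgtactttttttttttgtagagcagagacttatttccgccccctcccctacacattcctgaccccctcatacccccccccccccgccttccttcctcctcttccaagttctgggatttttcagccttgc
Mt1, chr8:94178839-94179078, plus strand: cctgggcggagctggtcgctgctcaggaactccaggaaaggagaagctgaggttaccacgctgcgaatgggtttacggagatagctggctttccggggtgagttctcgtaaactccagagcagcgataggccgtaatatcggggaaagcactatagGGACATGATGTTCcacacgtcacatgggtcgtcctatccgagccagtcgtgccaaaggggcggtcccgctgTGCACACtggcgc
Mt2, chr8:94172368-94172607, plus strand: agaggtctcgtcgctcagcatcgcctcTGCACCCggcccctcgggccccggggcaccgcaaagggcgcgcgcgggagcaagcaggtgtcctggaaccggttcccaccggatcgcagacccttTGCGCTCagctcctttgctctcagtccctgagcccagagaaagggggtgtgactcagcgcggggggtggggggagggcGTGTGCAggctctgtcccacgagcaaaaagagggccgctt
Per1, chr11:69098699-69098938, plus strand: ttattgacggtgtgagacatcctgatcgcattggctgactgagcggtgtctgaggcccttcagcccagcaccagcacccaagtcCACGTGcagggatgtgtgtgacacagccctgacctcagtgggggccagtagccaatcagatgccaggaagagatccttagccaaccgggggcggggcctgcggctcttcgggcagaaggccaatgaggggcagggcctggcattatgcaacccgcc
The whole set of 32851 such windows, each 250 bases long, was searched on both strands, and 17 of them belonged to 9 of the 10 genes, Zbtb16 having none in the table. Sgk1 had 6 windows, Tsc22d3 3, Per1 2 and each other gene with a window 1. The shares below are per window, so a gene with more windows had more places for a match. The full palindrome, AGAACA and TGTTCT with 3 bases between them, was in 3 windows, 0.00913% of all, and the Sgk1 window, at -189 to -175, was among them. The looser form, GNACA and TGTNC at the same spacing, was in 127 windows (0.387%), among them Sgk1, where it overlaps the full match, and Mt1 at -94 to -82. The single TGTTCT hexamer was in 16.1% of windows, including those of Tsc22d3 and Sgk1. TGCGCNC, the core of a metal response element in one form, was in 12.5% of windows, with matches at Mt2, Ddit4 and a second Per1 window, and TGCACNC in 10.4%, with matches at Mt1 and Mt2. CACGTG, the E-box of the clock factors, was in 6.02%, with matches at Fkbp5, Sgk1 and Per1. The Mt2 stretch lies in an exon of the antisense RNA Gm45774. A match describes letters only, and receptor elements far from the start were not searched.

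Total counts ran from 13704248 to 23630210 per library in the anti-GBM experiment, from 15665050 to 27583911 in the Adriamycin experiment and from 11186925 to 16254987 in PCKS, and the lowest count of any of the 10 genes in any library was 28 (Zbtb16), so all 10 passed the low-count filter in each experiment. Levels below are in CPM, counts scaled to a fixed library total after TMM normalisation. The summed level of 7 proximal tubule markers was 8821 to 18922 CPM in the kidneys and 322 to 762 CPM in PCKS. Adrenal markers (7 genes) summed to 0.68 to 3.98 CPM in all 38 libraries and Cyp11b2, the aldosterone synthase gene, was at 0 throughout. In bulk tissue, fewer cells of a type and less RNA per cell cannot be told apart.

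Per kilobase of exon, the order of the 10 genes differed between the preparations. Exon length was the union of the exons of all annotated transcripts of a gene. For Mt1 this union, 1246 bases, covered the whole gene with its introns, which lowers its value per kb. The order of genes within a preparation rests on this length, and lengths of single transcripts were not used. In healthy vehicle C57BL/6 kidneys Klf9, a hormone-responsive transcription factor, was the highest at 60.9 CPM per kb, followed by the metallothioneins Mt1 (46.7) and Mt2 (40.6). Sgk1 (12.4), Tsc22d3 (10.1), Fkbp5 (9.90) and Pdk4 (8.77 CPM per kb) stood next and their ranges over mice overlapped, as did those of Ddit4 (6.64) and Per1 (6.59). Zbtb16 was the lowest at 0.909 CPM per kb. In PCKS with vehicle, Mt2 (635), Mt1 (344) and Ddit4 (285 CPM per kb) led, and Klf9 was at 25.4 CPM per kb. The experiments differ in strain, sex, age, disease and tissue preparation, so no test was made between them.

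**Figure D1:**
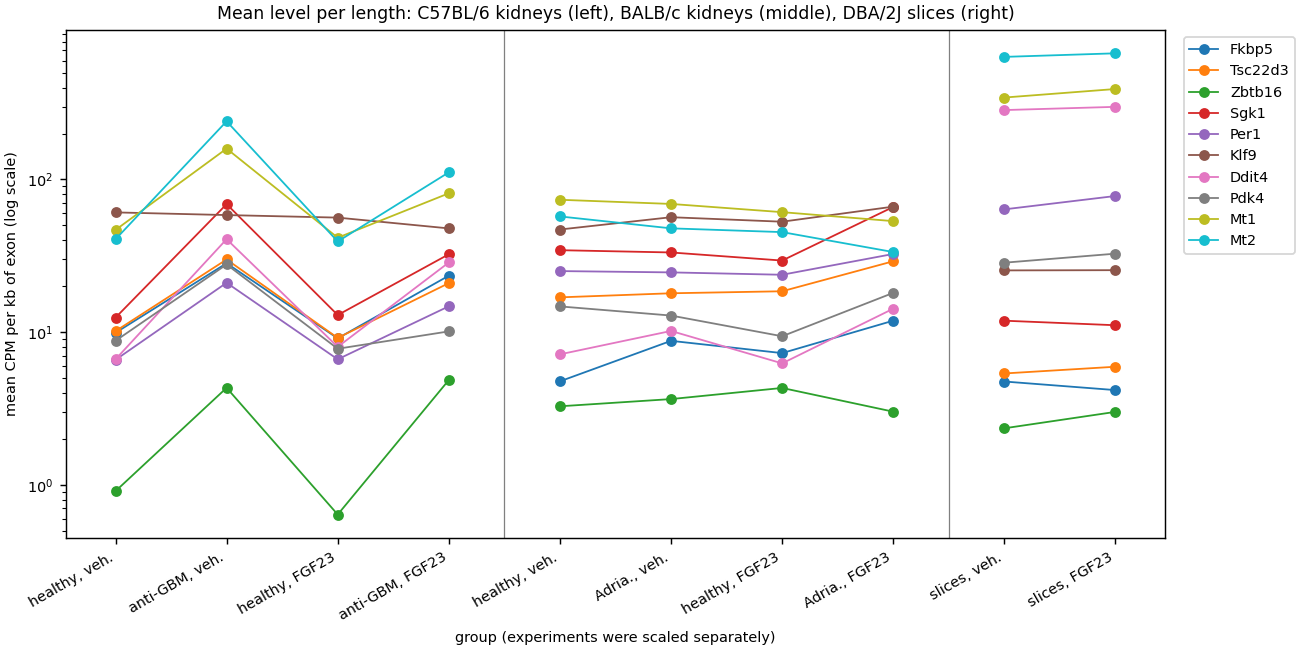
Mean level of the 10 genes in CPM per kilobase of exon (log axis) in each of the 10 groups; the experiments were scaled separately. Klf9 leads in healthy C57BL/6 kidneys at 60.9, Mt2 leads in anti-GBM vehicle kidneys at 240.5 and in vehicle PCKS at 635. This order rests on the union of annotated exons, which for Mt1 covers the whole gene.

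The first question was whether the glucocorticoid-induced genes differed between anti-GBM and healthy kidneys. Of the 10, 9 were higher with vehicle at an adjusted p below 0.05 (edgeR quasi-likelihood test, Benjamini-Hochberg over 15859 genes), by 2.85-fold to 6.12-fold, and Klf9 did not pass. Among all genes tested, 39.8% passed in either direction, 19.4% higher and 20.4% lower. The median log2 fold change of the 10 genes was 1.72, beside -0.01 over all genes.

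Fkbp5 encodes a cochaperone that lowers the receptor's affinity for hormone. It stood at 77.2, 108, 121 and 69.2 CPM in the 4 healthy vehicle kidneys and at 250.1, 177, 304 and 339 CPM in the 4 anti-GBM vehicle kidneys. Every diseased kidney was above every healthy kidney, with a log2 fold change of 1.51 ± 0.25 (SE, adjusted p = 0.000372 by edgeR). Tsc22d3 encodes GILZ, a leucine zipper protein that dampens NF-κB and AP-1 signalling. Its values were 51.2, 43.7, 47.7 and 33.6 CPM in healthy and 152, 107, 138 and 122 CPM in anti-GBM vehicle kidneys, again with no overlap (log2 fold change 1.56 ± 0.23, adjusted p = 0.000186 by edgeR).

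Zbtb16 (PLZF), Per1 and Klf9 encode transcriptional regulators. Zbtb16 was at 5.26, 5.94, 6.14 and 1.86 CPM in healthy vehicle kidneys and at 8.23, 5.47, 52.2 and 25.3 CPM in anti-GBM vehicle kidneys. The groups overlapped and the range within the diseased group was wide, from 5.47 to 52.2 CPM. The log2 fold change was 2.23 ± 0.65 (adjusted p = 0.0144 by edgeR), and without mouse NTS7, the highest, it was 1.41 (adjusted p = 0.0696). Per1, a repressor of the circadian clock, was at 51.4, 25.9, 34.9 and 36.1 CPM in healthy and 139.6, 153, 101 and 80.7 CPM in diseased kidneys, without overlap (log2 fold change 1.68 ± 0.42, adjusted p = 0.0061 by edgeR). Klf9 was at 279, 269, 308 and 317 CPM in healthy and 332, 293, 263 and 238 CPM in diseased kidneys. Its groups overlapped, and its log2 fold change of -0.06 had a 95% interval of -0.39 to 0.27 (adjusted p = 0.792 by edgeR).

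Sgk1, Ddit4 and Pdk4 carry effects on transport and metabolism. Sgk1 encodes a kinase that keeps the epithelial sodium channel at the cell surface. Its levels were 63.3, 67.6, 51.3 and 61.8 CPM in healthy and 317, 237, 460.3 and 339 CPM in anti-GBM vehicle kidneys, a log2 fold change of 2.47 ± 0.34 without overlap (adjusted p = 0.000116 by edgeR). Ddit4 (REDD1), an inhibitor of the growth kinase complex mTORC1, had the highest fold of the 10. It stood at 17.2, 10.9, 9.43 and 9.01 CPM in healthy and 78.5, 124, 49.4 and 33.2 CPM in diseased kidneys (log2 fold change 2.61 ± 0.41, adjusted p = 0.000302 by edgeR), also without overlap. Pdk4 encodes a kinase that shuts pyruvate dehydrogenase and so spares glucose. It was at 22.2, 15.6, 12.6 and 72.8 CPM in healthy and 61.2, 63.4, 83.1 and 182 CPM in diseased kidneys. The healthy mouse NTS4 lay among the diseased mice, and the log2 fold change was 1.67 ± 0.52 (adjusted p = 0.0192 by edgeR). Without the diseased mouse NTS8 it was 1.23 (adjusted p = 0.0712), without the healthy mouse NTS2 it was 1.49 (adjusted p = 0.0557) and without NTS4 it was 2.57 (adjusted p = 0.000808).

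Mt1 and Mt2 encode metallothioneins, small cysteine-rich proteins that bind zinc and copper. Mt1 was at 67.3, 46.4, 53.5 and 65.5 CPM in healthy and 114, 156, 210.1 and 314 CPM in anti-GBM vehicle kidneys. Mt2 was at 28.8, 17.3, 25.0 and 24.3 CPM in healthy and 72.9, 105, 162 and 225 CPM in diseased kidneys. Neither gene's groups overlapped, and the same diseased mice, NTS8 then NTS7, were highest for both. The log2 fold changes were 1.77 ± 0.27 for Mt1 (adjusted p = 0.000254) and 2.57 ± 0.31 for Mt2 (adjusted p = 4.8e-05, both by edgeR).

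**Figure D2:**
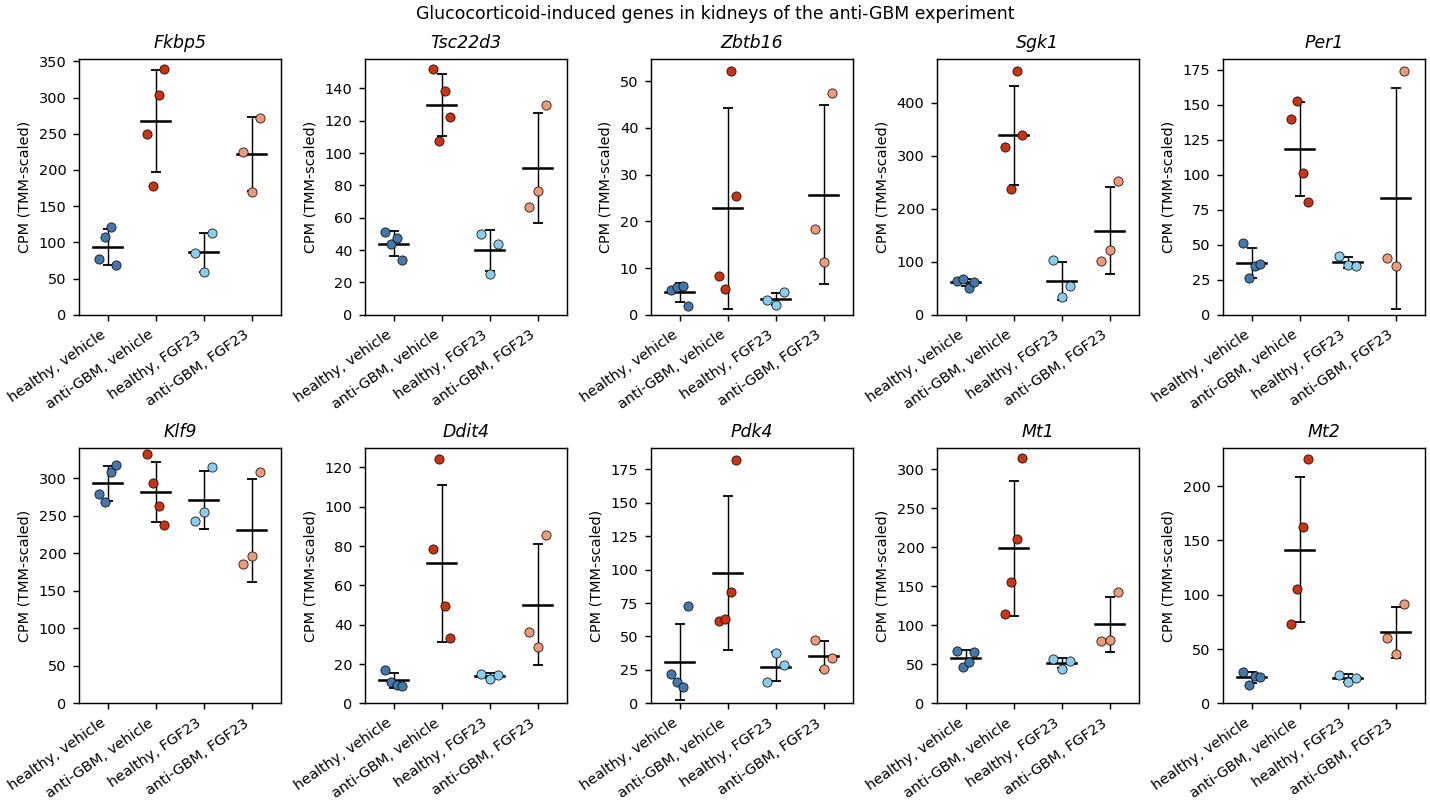
CPM of each of the 10 genes in the anti-GBM experiment, in 4 groups: points are mice, bars are group means and whiskers are SD, with each axis starting at 0. In the panels of Fkbp5, Tsc22d3, Sgk1, Per1, Ddit4, Mt1 and Mt2 every anti-GBM vehicle mouse lies above every healthy vehicle mouse, and Klf9 shows no such shift. How many of all genes separate in this way was not counted. Of all genes tested, 39.8% had an adjusted p below 0.05 between these groups (edgeR).

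The diseased mice did not share 1 order across the genes. Mice NTS7 and NTS8 had the highest Fkbp5, Zbtb16, Sgk1, Pdk4, Mt1 and Mt2 of the anti-GBM vehicle group, whereas NTS5 and NTS6 had the highest Per1, Klf9 and Ddit4. Macrophage markers (7 genes) summed to 125.5 to 136.5 CPM in healthy and 285 to 519 CPM in anti-GBM vehicle kidneys, and 6 of the 7 were higher. Their highest sums were in NTS6 (519) and NTS5 (446). These mice had the higher Per1, Klf9 and Ddit4 of the group and the lower Fkbp5, Zbtb16, Sgk1, Pdk4, Mt1 and Mt2. Neutrophil markers summed to 1.24 to 2.12 CPM against 9.01 to 18.2 CPM (4 of 4 tested higher), fibroblast markers to 204 to 291 CPM against 704 to 1087 CPM (5 of 5 higher) and proximal tubule markers to 15862 to 18922 CPM against 10077 to 15300 CPM (5 of 7 lower). The part of these shifts in cell markers in the fold changes of the 10 genes was not tested.

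The same disease comparison was made among FGF23-treated mice, which are other mice than those compared with vehicle. Both comparisons came from the same fit of all mice of the experiment, with shared scaling and a shared estimate of spread. Of the 10 genes, 7 were higher in anti-GBM kidneys (edgeR, adjusted p below 0.05), where 27.2% of all genes passed in either direction, 14.5% higher and 12.7% lower. The median of the 10 was 1.25 on the log2 scale, beside -0.02 over all genes. Macrophage markers summed to 118 to 162 CPM in the healthy and 421 to 428 CPM in the diseased mice given FGF23, with 6 of 7 higher. Neutrophil markers summed to 1.13 to 3.0 CPM and 5.99 to 9.16 CPM (3 of 4 higher), fibroblast markers to 219.95 to 281 CPM and 990.5 to 1386 CPM (4 of 5 higher) and proximal tubule markers to 15755 to 17479 CPM and 8821 to 11803 CPM (3 of 7 lower). Their part in these results was not tested.

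Fkbp5 was at 113, 85.8 and 59.3 CPM in the 3 healthy FGF23 kidneys and at 224, 169.6 and 272 CPM in the 3 anti-GBM FGF23 kidneys (log2 fold change 1.36 ± 0.28, adjusted p = 0.00296 by edgeR). Tsc22d3 was at 44.0, 49.8 and 25.5 CPM against 66.4, 76.7 and 129.6 CPM (1.19 ± 0.26 on the log2 scale, adjusted p = 0.00444 by edgeR). Neither of these feedback and anti-inflammatory genes overlapped between the groups. Zbtb16 was at 4.84, 3.13 and 2.16 CPM against 18.4, 11.2 and 47.4 CPM, without overlap (2.90 ± 0.78 on the log2 scale, adjusted p = 0.0134 by edgeR). Per1 stood at 34.9, 42.0 and 35.3 CPM against 40.7, 34.8 and 174 CPM, so that a single diseased mouse, NTS16, lay apart from the other 5 (1.15 ± 0.48 on the log2 scale, adjusted p = 0.0886 by edgeR). Klf9 was at 315, 243 and 255 CPM against 186, 196 and 308 CPM, and its log2 fold change of -0.23 did not pass (95% interval -0.61 to 0.14).

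Sgk1 was at 54.6, 103 and 33.1 CPM in healthy and 101.7, 121 and 253 CPM in anti-GBM FGF23 kidneys, the groups overlapping by a narrow margin (log2 fold change 1.32 ± 0.38, adjusted p = 0.0192 by edgeR, and 0.0551 at a log2 fold change of 1.34 when only these 2 groups were fitted). Ddit4 was at 14.7, 14.9 and 12.6 CPM against 36.4, 28.6 and 85.6 CPM without overlap (1.83 ± 0.46 on the log2 scale, adjusted p = 0.00965 by edgeR). Pdk4 was at 28.8, 15.7 and 37.5 CPM against 47.1, 25.7 and 33.8 CPM, overlapping groups whose log2 fold change of 0.39 had a 95% interval of -0.88 to 1.65. The metallothioneins did not overlap: Mt1 was at 53.7, 57.2 and 44.5 CPM against 80.1, 81.3 and 142 CPM (0.96 ± 0.31 on the log2 scale, adjusted p = 0.0321 by edgeR), and Mt2 at 23.4, 26.4 and 19.4 CPM against 60.3, 45.0 and 91.2 CPM (1.501 ± 0.35, adjusted p = 0.00637). NTS16 was the highest of the 3 diseased mice for 9 of the 10 genes, Pdk4 being the exception. Without NTS16, 4 of the 10 genes were called: Zbtb16 (2.11, adjusted p = 0.0634), Sgk1 (0.81, adjusted p = 0.113), Ddit4 (1.20, adjusted p = 0.0546) and Mt1 (0.64, adjusted p = 0.155) no longer passed, and Klf9, at -0.50, did (adjusted p = 0.0256). The share of all genes called without NTS16 was not counted. The call on Sgk1 was also lost without the healthy mouse NTS9 (1.23, adjusted p = 0.0697) or NTS11 (1.04, adjusted p = 0.0712), that on Mt1 without NTS9 (1.008, adjusted p = 0.071), NTS10 (1.04, adjusted p = 0.0531) or NTS11 (0.90, adjusted p = 0.099), and that on Zbtb16 without NTS11 (2.72, adjusted p = 0.0541). Per1 passed without NTS13 (1.49, adjusted p = 0.0452) or NTS14 (1.53, adjusted p = 0.0269).

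**Figure D3:**
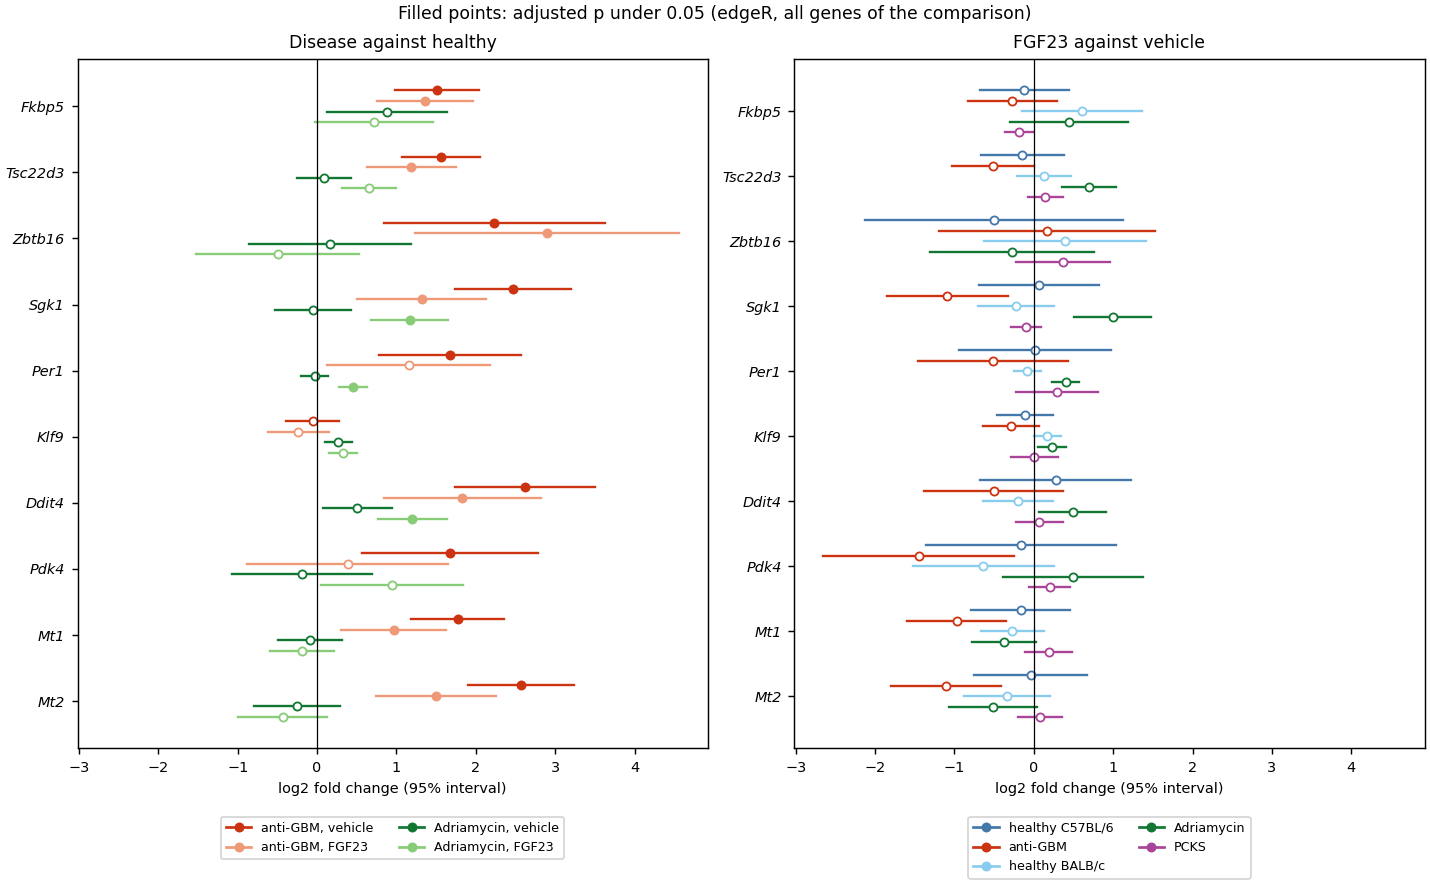
Log2 fold change of the 10 genes in the disease and FGF23 comparisons, with 95% intervals; filled points have an adjusted p below 0.05. With vehicle, 9 of the 10 genes are filled for anti-GBM disease and 0 for Adriamycin, where 39.8% and 0.331% of all genes passed. Under FGF23 7 and 3 are filled, where 27.2% and 0.699% of all genes passed (edgeR, either direction).

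The second question was whether these genes differed between FGF23 and vehicle in C57BL/6 kidneys. In healthy mice edgeR called 0 of the 10, where 0% of all genes passed, DESeq2 called 0, 0 had an unadjusted p below 0.05 (4.34% of all genes), and the log2 fold changes lay between -0.50 (Zbtb16, 95% interval -2.12 to 1.12) and 0.27 (Ddit4, -0.67 to 1.22). In anti-GBM mice edgeR called 0 of the 10, where 0.24% of all genes passed and 0.00631% were lower, and 4 had an unadjusted p below 0.05 (12.6% of all genes). DESeq2 called 1 (Mt2, adjusted p = 0.0427), and how many of all genes it called was not counted. This comparison shares its anti-GBM vehicle mice with the vehicle disease comparison and its anti-GBM FGF23 mice with the FGF23 disease comparison.

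The 4 were the metallothioneins, Sgk1 and Pdk4, each lower with FGF23. Mt2 was at 60.3, 45.0 and 91.2 CPM in the anti-GBM FGF23 mice, against 72.9 to 225 CPM in the anti-GBM vehicle mice (log2 fold change -1.11, 95% interval -1.80 to -0.41, adjusted p = 0.269 by edgeR). Mt1 had a log2 fold change of -0.97 (-1.59 to -0.35, adjusted p = 0.279) and Sgk1 of -1.09 (-1.86 to -0.33, adjusted p = 0.313), and for both the groups overlapped. Pdk4 was at 25.7 to 47.1 CPM with FGF23 and at 61.2 to 182 CPM with vehicle, without overlap (log2 fold change -1.45, -2.66 to -0.25, adjusted p = 0.349 by edgeR). Without NTS16, Per1 passed (log2 fold change -1.65, adjusted p = 0.0227). Neutrophil markers summed to 9.01 to 18.2 CPM with vehicle and 5.99 to 9.16 CPM with FGF23 (median log2 fold change -1.48, 0 of 4 called, 3 with an unadjusted p below 0.05 by edgeR), and fibroblast markers to 704 to 1087 CPM and 990.5 to 1386 CPM (median 0.45, 0 of 5 called, 2 with an unadjusted p below 0.05). Their part in these values was not tested. The difference between the FGF23 effects in anti-GBM and healthy mice was tested as an interaction: edgeR and DESeq2 each called 0 of the 10, where 0.0315% of all genes passed by edgeR, and 2 had an unadjusted p below 0.05 (8.3% of all genes), Sgk1 (-1.15 on the log2 scale, adjusted p = 0.577) and Mt2 (-1.07, adjusted p = 0.577).

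In the Adriamycin experiment the vehicle comparison called 0 of the 10 genes by edgeR and 0 by DESeq2, where 0.331% of all genes passed by edgeR, and 3 had an unadjusted p below 0.05 (8.27% of all genes). Fkbp5 was at 34.9, 54.9, 47.0 and 43.6 CPM in healthy vehicle kidneys and at 65.3, 54.1, 121 and 91.9 CPM in Adriamycin vehicle kidneys, overlapping at 1 mouse on each side (log2 fold change 0.88, 95% interval 0.13 to 1.64, adjusted p = 0.489 by edgeR). Klf9 was at 227, 214, 220.5 and 243.2 CPM against 259, 243.7, 292 and 295 CPM, which touch without overlap (0.27, 0.09 to 0.44, adjusted p = 0.286). Ddit4 was at 12.2, 12.5, 10.98 and 14.6 CPM against 20.2, 17.6, 16.5 and 17.2 CPM, without overlap (0.51, 0.08 to 0.94, adjusted p = 0.485). For the other 7 genes the 95% intervals included 0. Sgk1 was at 132 to 201 CPM in healthy and 132 to 190 CPM in Adriamycin kidneys, and Per1 at 121 to 150 CPM and 128 to 146 CPM. The 95% intervals of the log2 fold change were -0.53 to 0.43 for Sgk1 and -0.20 to 0.14 for Per1. Of the macrophage, neutrophil, fibroblast and proximal tubule markers, none was called in the Adriamycin comparisons by edgeR.

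Among the BALB/c mice given FGF23, 3 of the 10 genes were higher with Adriamycin (edgeR, adjusted p below 0.05), where 0.699% of all genes passed in either direction and 0.462% were higher. Sgk1 was at 151, 113, 163 and 149 CPM in healthy FGF23 and 301, 377, 451 and 166 CPM in Adriamycin FGF23 kidneys, with no overlap although mouse Ad16 lay near the healthy mice (log2 fold change 1.17 ± 0.23, adjusted p = 0.0267 by edgeR). Per1 was at 144, 140.3, 119.7 and 131 CPM against 166, 169.5, 198 and 199 CPM, without overlap (0.45 ± 0.08, adjusted p = 0.0179). Ddit4 was at 11.01, 8.44, 10.5 and 13.9 CPM against 28.5, 24.4, 33.5 and 13.6 CPM, where Ad16 lay within the healthy range (1.20 ± 0.21, adjusted p = 0.0146). Tsc22d3 was at 86.1, 75.4, 100.3 and 59.9 CPM against 132, 141, 147 and 84.5 CPM, Ad16 again lying among the healthy mice, and did not pass (0.66, 95% interval 0.31 to 1.00, adjusted p = 0.0828). Klf9 (0.33, 0.16 to 0.50, adjusted p = 0.0866) and Pdk4 (0.94, 0.05 to 1.83, adjusted p = 0.361) had an unadjusted p below 0.05 as well, 6 of the 10 in all beside 12.7% of all genes by edgeR. DESeq2 called 5 of the 10, adding Tsc22d3 and Klf9, and how many of all genes it called was not counted. The metallothioneins had log2 fold changes of -0.20 (Mt1, -0.60 to 0.21) and -0.44 (Mt2, -0.99 to 0.12).

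These 3 calls lay near the threshold, and alternatives that ended them left the folds at or near their values. When the 8 mice compared were fitted alone, 0 of the 10 passed, with log2 fold changes of 1.17 for Sgk1 (adjusted p = 0.148), 0.45 for Per1 (0.0695) and 1.20 for Ddit4 (0.128, edgeR). Without Ad15 none of the 3 passed, at adjusted p = 0.0832 for Sgk1 (log2 fold change 0.97), 0.0591 for Per1 (0.41) and 0.0542 for Ddit4 (1.03), and without Ad14 only Per1 did, Sgk1 being at 1.09 (adjusted p = 0.108) and Ddit4 at 1.22 (0.0517). Sgk1 also lost its call without Ad9 (1.20, adjusted p = 0.0588), Ad10 (1.07, 0.0716) or Ad11 (1.23, 0.0566), all healthy mice, and under a robust fit (1.17, 0.0617). Per1 lost its call without Ad11 (0.40, adjusted p = 0.0566) or Ad16 (0.41, 0.0506). Without Ad16, Tsc22d3 passed (0.81, adjusted p = 0.0114), and without Ad11, Klf9 did (0.41, adjusted p = 0.0424). Adipocyte markers (4 genes) summed to 0.14 to 113 CPM in the healthy and 0.18 to 9.0 CPM in the Adriamycin FGF23 mice, with Ad9 and Ad10 the highest, beside 0.49 to 24.6 CPM in healthy and 0.14 to 0.41 CPM in Adriamycin vehicle mice, and their part in these results was not tested.

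For FGF23 in healthy BALB/c mice edgeR and DESeq2 each called 0 of the 10 genes, where 0% of all genes passed by edgeR, and 0 had an unadjusted p below 0.05 (6.69% of all genes). The log2 fold changes lay between -0.64 (Pdk4, 95% interval -1.53 to 0.25) and 0.61 (Fkbp5, -0.14 to 1.37). In Adriamycin mice edgeR called 0 of the 10, where 0.0375% of all genes passed, and 5 had an unadjusted p below 0.05 (5.69% of all genes), all higher with FGF23. This comparison shares its Adriamycin FGF23 mice with the disease comparison under FGF23 and its Adriamycin vehicle mice with the vehicle disease comparison. Per1 did not overlap between the Adriamycin groups, at 128 to 146 CPM with vehicle and 166 to 199 CPM with FGF23 (log2 fold change 0.40, 95% interval 0.23 to 0.57, adjusted p = 0.173 by edgeR). Sgk1 had a log2 fold change of 0.99 (adjusted p = 0.269), Tsc22d3 of 0.70 (adjusted p = 0.279), Klf9 of 0.23 (adjusted p = 0.791) and Ddit4 of 0.49 (adjusted p = 0.846). DESeq2 called 3 of these, Tsc22d3, Sgk1 and Per1 (adjusted p = 0.0144, 0.0232 and 0.00339), and without Ad16 edgeR called 2, Sgk1 (1.21, adjusted p = 0.00728) and Tsc22d3 (0.85, adjusted p = 0.0219). The share of all genes called was not counted for DESeq2 or for the fit without Ad16. The interaction of FGF23 with Adriamycin called 0 of the 10 by either tool, where 0% of all genes passed by edgeR, and 4 had an unadjusted p below 0.05 (5.11% of all genes). Their log2 values were 1.22 for Sgk1 (adjusted p = 0.668), 0.48 for Per1 (0.528), 0.57 for Tsc22d3 (0.967) and 0.69 for Ddit4 (0.967).

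**Figure D4:**
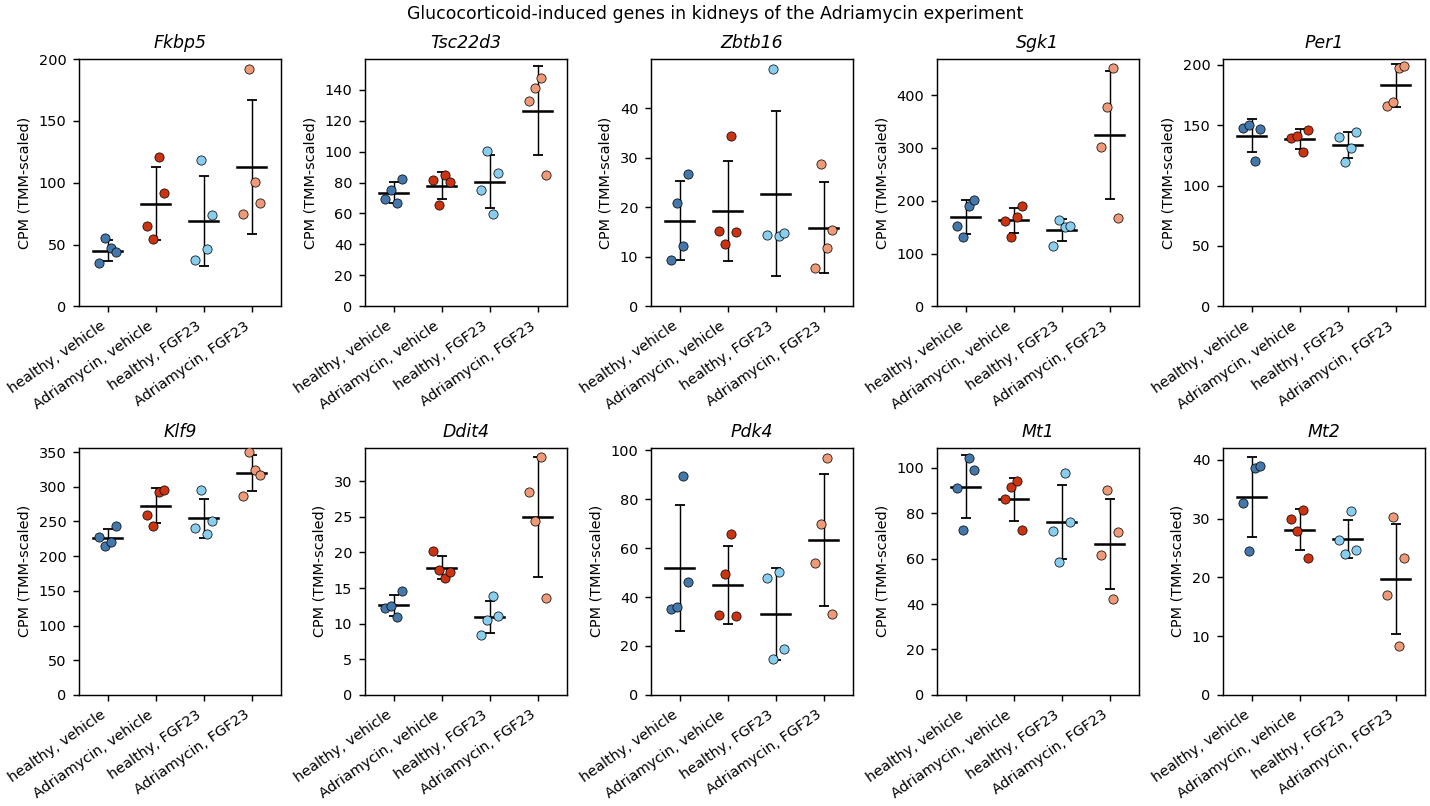
CPM of each of the 10 genes in the Adriamycin experiment, in 4 groups of 4 mice: points are mice, bars are means and whiskers are SD, with axes from 0. For Sgk1, Ddit4 and Tsc22d3, 3 of the 4 Adriamycin FGF23 mice stand above all other mice, and Ad16, at 166, 13.6 and 84.5 CPM, does not.

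For FGF23 in PCKS edgeR and DESeq2 each called 0 of the 10 genes, where 0% of all genes passed by edgeR, and 1 had an unadjusted p below 0.05 (4.89% of all genes). Fkbp5 was at 43.9, 45.7, 47.4 and 42.8 CPM in vehicle slices and at 38.2, 41.1, 40.8 and 37.8 CPM in FGF23 slices, without overlap, a log2 fold change of -0.19 (95% interval -0.36 to -0.02, adjusted p = 0.849 by edgeR). Ddit4 was at 427 to 568 CPM with vehicle and 401 to 577 CPM with FGF23, and Per1 at 199 to 476 CPM and 385 to 498 CPM. Mt1 was at 388 to 449 CPM and 398 to 604 CPM and Mt2 at 358 to 389 CPM and 346 to 508 CPM. Sgk1 was at 52.6 to 62.7 CPM and 51.7 to 59.7 CPM, Tsc22d3 at 22.5 to 24.0 CPM and 22.9 to 29.3 CPM, and Zbtb16 at 6.503 to 17.01 CPM and 12.9 to 18.4 CPM. Klf9 was at 101 to 142 CPM and 103 to 139 CPM and Pdk4 at 81.3 to 123 CPM and 111 to 121 CPM. The groups of each of these 9 genes overlapped.

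Within groups the 10 genes differed widely in spread. The pooled SD of log2 CPM within groups was 1.06 for Zbtb16, 0.81 for Pdk4 and 0.66 for Per1 in the anti-GBM experiment and 0.24 for Klf9. In the Adriamycin experiment it was 0.75 for Zbtb16, 0.69 for Pdk4, 0.56 for Fkbp5 and 0.13 for Per1. In PCKS it was 0.06 for Fkbp5 and 0.48 for Zbtb16. Whether genes spread together was described by correlating each gene's deviation from its group mean with that of Fkbp5, 9 genes in each of 3 experiments, 27 relations in all, with exact permutation within groups.

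Zbtb16 and Fkbp5 deviated together among mice in both kidney experiments. Over the 14 mice of the anti-GBM experiment Pearson's r was 0.81 (exact permutation p = 0.00125, adjusted 0.0169) and Spearman's rho 0.84 (exact permutation p = 0.000338, adjusted 0.00492). Over the 16 mice of the Adriamycin experiment r was 0.81 (exact permutation p = 0.0011, adjusted 0.0169) and rho 0.81 (exact permutation p = 0.000365, adjusted 0.00492). Without the 2 mice farthest from the median, r was 0.76 (without NTS6 and NTS11) and 0.65 (without Ad11 and Ad14), and after that no relation among the 27 passed at an adjusted p below 0.05. In PCKS r was 0.09 over 8 slices (exact permutation p = 0.84). Klf9 had r = 0.79 with Fkbp5 in the Adriamycin experiment (exact permutation, adjusted p = 0.0349) and rho 0.72 (adjusted p = 0.0681). Tsc22d3 had r of 0.60, 0.60 and -0.75 in the anti-GBM, Adriamycin and PCKS experiments, none at an adjusted p below 0.05 by exact permutation. The mice of an experiment share its scaling.

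**Figure D5:**
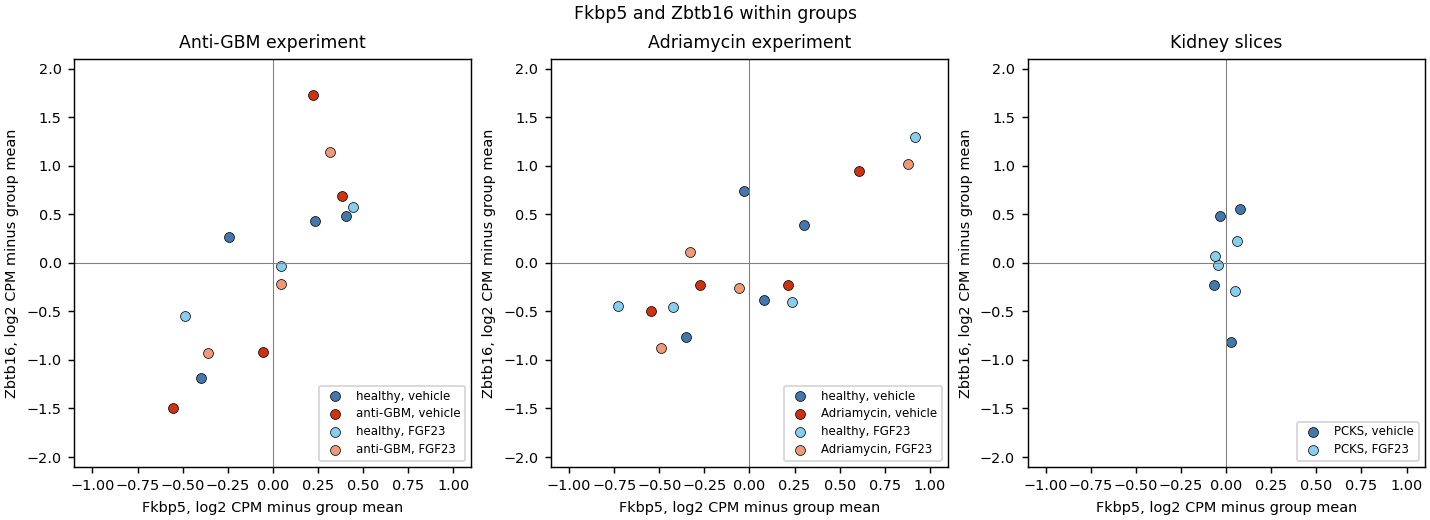
Deviation of log2 CPM from the group mean for Fkbp5 (x axis) and Zbtb16 (y axis), 1 point per mouse or slice, with a panel for each experiment. The points rise together in the anti-GBM (r = 0.81) and Adriamycin (r = 0.81) experiments and not in PCKS (r = 0.09).

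The receptor and the genes that handle its ligand are a list of 10. In anti-GBM vehicle kidneys 2 were higher and 3 lower (median log2 fold change 0.10), beside 19.4% higher and 20.4% lower over all genes tested, to which the list counts below for these kidneys also compare. Nr3c1, the glucocorticoid receptor, was at 139, 147, 125 and 148 CPM in healthy vehicle and 97.6, 112, 81.9 and 53.7 CPM in anti-GBM vehicle kidneys, without overlap (log2 fold change -0.69, adjusted p = 0.00504 by edgeR). Nr3c2, the mineralocorticoid receptor (-0.39, adjusted p = 0.011), and Hsd11b1, which regenerates active hormone (-0.996, adjusted p = 0.00771), were lower too. Hsd11b2, which inactivates it (0.43, adjusted p = 0.0217), and the cochaperone gene Stip1 (0.42, adjusted p = 0.00147) were higher. Hsp90aa1 (0.25), Hsp90ab1 (0.25), Fkbp4 (0.09), H6pd (0.10) and Ptges3 (0.02 on the log2 scale) did not pass. Under FGF23 3 of the list were higher (Hsd11b2, Stip1 and Ptges3) and 0 lower, beside 14.5% higher and 12.7% lower over all genes. Nr3c1 was at 144, 128 and 130.2 CPM in healthy and 89.1, 106 and 82.2 CPM in anti-GBM FGF23 mice. No gene of this list was called in the Adriamycin, FGF23 or PCKS comparisons by edgeR, where at most 0.699% of all genes passed.

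A list of 24 other glucocorticoid-induced genes had 23 tested, of which 12 were higher and 0 lower in anti-GBM vehicle kidneys, with a median log2 fold change of 0.49. They included Cebpd, a transcription factor of the acute phase (3.33 on the log2 scale), Nfkbia, the inhibitor of NF-κB (1.61), Rhob, a small GTPase (1.57), and Anxa1, an anti-inflammatory annexin (1.43). Under FGF23 6 were higher and 1 lower (G6pc, the last enzyme of glucose release), beside 14.5% higher and 12.7% lower over all genes. With Adriamycin 0 passed with vehicle (edgeR, beside 0.331% of all genes), and 3 had an unadjusted p below 0.05 (8.27% of all genes). With Adriamycin under FGF23 2 passed, where 0.699% of all genes did, Nfkbia (1.04, adjusted p = 0.00258) and Rhob (0.68, adjusted p = 0.0267, edgeR). G6pc was the only gene of the related lists called by edgeR between FGF23 and vehicle, lower in anti-GBM mice (-1.44), where 0.24% of all genes passed.

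Of 7 tested inflammatory genes that glucocorticoids are known to repress, 5 were higher in anti-GBM vehicle kidneys and 0 lower (median 1.43), with the chemokine genes Cxcl1 (5.42 on the log2 scale) and Ccl2 (3.51), the adhesion receptor Icam1 (1.43) and the cytokine Il1b (1.11) among them. The metal and oxidative list had 2 of 8 higher and 3 lower (median -0.42). The zinc importer Slc39a14 (0.74) and the heme oxygenase Hmox1 (1.12) were higher, and the zinc exporter Slc30a1 (-0.39) and the glutathione enzyme Gclc (-1.04), like Mtf1, the metal-responsive factor, were lower.

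Against the same 19.4% higher and 20.4% lower over all genes, of 15 clock genes 5 were higher and 5 lower (median -0.31), with Cry1 (1.93), Arntl (1.56) and Per2 (0.61) higher, and Nr1d1 (-2.09), Nr1d2 (-0.87), Per3 (-0.62), Tef (-0.53) and Clock (-0.40) lower. Of 12 fasting and PPARα genes tested, 2 were higher and 5 lower (median -0.25), among them Plin2, which coats lipid droplets, higher (0.85) and the fatty acid oxidation genes Ehhadh (-1.07) and Cpt1a (-0.39) lower. Of 8 genes of the ATF4 and mTORC1 stress list, 5 were higher and 0 lower (median 0.64), with the asparagine synthetase gene Asns (1.39) and Psat1 of serine synthesis (1.26). Of 6 aldosterone-sensitive sodium transport genes, 4 were higher and 0 lower (median 0.37), the 3 epithelial sodium channel subunits Scnn1a (0.44), Scnn1b (0.54) and Scnn1g (0.47) and the ubiquitin ligase Nedd4l (0.30). In the Adriamycin comparisons 1 gene of these last 4 lists passed by edgeR, the clock gene Ciart, at 0.52 with vehicle (adjusted p = 0.0376) and 0.77 under FGF23 (adjusted p = 0.00258). Over all genes, 0.331% passed with vehicle and 0.699% under FGF23.

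Across 7 comparisons of 13974 genes tested in all 3 experiments, the genes whose log2 fold changes came nearest to those of Fkbp5 were Uhrf1 (root mean square difference 0.23), Hif3a (0.24) and Dtl (0.27). Those nearest to Mt1 were Mall (0.26), Gtse1 (0.26) and Cenpa (0.26). In anti-GBM vehicle kidneys the log2 fold changes were 1.855 for Uhrf1, 1.84 for Hif3a and 1.45 for Dtl, beside 1.51 for Fkbp5. In Adriamycin vehicle kidneys they were 0.56 for Uhrf1, 0.86 for Hif3a and 0.53 for Dtl, beside 0.88 for Fkbp5. Of the genes named here as nearest, only Hif3a stands in the list of other glucocorticoid-induced genes. Several of these 7 comparisons share control groups, and likeness here is a description only.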

How the data were processed

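Kidney RNA-Seq was measured in 14, 16 and 8 libraries. The raw counts per gene were deposited by the authors; per the labels, libraries used a stranded mRNA kit, and the submitters' processing notes name bcl2fastq 2.20.0, FastQC 0.11.8, STAR 2.7.9a (build GRCm38) and featureCounts 1.5.1. Gene positions and exon lengths come from the GENCODE annotation of GRCm38, release M21, not the authors' own annotation file. The strand setting of counting is not given in the sources used here. Antisense genes overlap Fkbp5 (AC154912.1, median count 10) and Mt2 (Gm45774, median count 2).

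Group sizes follow the labels. Kidney columns, whose names the labels do not hold, were assigned to groups by the headers of the study's supplementary tables; 1 column, named NTS4 a second time but numbered 14 and listed with FGF23-treated anti-GBM mice, is called NTS14 here. Slices were assigned by the letter and number in their names; in the study's slice table the treatment row matches those letters, whereas a row of group codes differs from them. Each experiment was fitted on its own with all its groups (edgeR 4.0.16 in R 4.3.3, TMM, filterByExpr with a minimum count of 10, quasi-likelihood F test, Benjamini-Hochberg over all genes tested, adjusted p under 0.05), after tests on simulated counts. Intervals are 95%. DESeq2 1.42.0 was an alternative. No 2 replicates agreed within sampling noise. The members and lists were chosen with earlier results of these data known. All 10 members are named; the receptor list is named in full and other lists by up to 4 genes with the smallest p, and genes named beyond that were chosen after their values were seen. Co-variation used log2 CPM with a prior count of 2.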

Additional observations from a re-analysis of the deposited data

Results flagged for a closer look

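In each group of 4 libraries, the highest and lowest level of each of the 10 genes was compared with the rest by Dixon's test; 80 groups were tested, 6 values stood apart, and chance marks about 1 group in 20. Pdk4 was at 72.8 CPM in the healthy vehicle C57BL/6 mouse NTS4, where the next value was 22.2. Zbtb16 was at 34.3 CPM in the Adriamycin vehicle mouse Ad7 (next 15.1) and at 47.8 CPM in the healthy FGF23 BALB/c mouse Ad11 (next 14.7). Per1 was at 121 CPM in the healthy vehicle BALB/c mouse Ad3, below the next value of 147. In PCKS with FGF23, Ddit4 was at 401 CPM in slice 1F, below the next value of 550.2, and Mt2 was at 508 CPM in slice 3F, above the next value of 369. The cause of these values was not tested.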

How the results depend on the processing

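Counts of the 10 genes called stayed within 1.5 times the main count except as follows. For FGF23 in anti-GBM mice DESeq2 called 1 against 0. For Adriamycin under FGF23 the fit of only the groups compared called 0 and DESeq2 5, against 3. For FGF23 in Adriamycin mice no low-count filter gave 2 and DESeq2 3, against 0. For co-variation with Fkbp5, leaving out the 2 farthest samples left 0 of 3 relations. With each library left out in turn, the counts ranged from 8 to 9 for anti-GBM with vehicle, 4 to 8 under FGF23, 0 to 1 for FGF23 in anti-GBM mice, 0 to 3 for Adriamycin under FGF23 and 0 to 2 for FGF23 in Adriamycin mice, and were 0 in the other 6 comparisons. How many of all genes passed under DESeq2, under the other alternative fits or with a library left out was not counted. Among single-gene values under the other alternatives, 793 of 810 kept their side of the threshold, 7 lost a call, 10 gained one and 0 changed sign. With a library left out, 1549 kept their side, 23 lost a call, 8 gained one, and 40 changed sign, none past the threshold in either fit. With no filter, Per1 in anti-GBM under FGF23 (adjusted p = 0.0341), Tsc22d3 with Adriamycin under FGF23 (0.0264) and Sgk1 (0.042) and Per1 (0.048) for FGF23 in Adriamycin mice gained a call. A required log2 fold change above 1 removed Mt1 in anti-GBM under FGF23 (0.96) and Per1 with Adriamycin under FGF23 (0.45), the robust fit removed Sgk1 with Adriamycin under FGF23 (adjusted p = 0.0617), and fitting only the groups compared removed Sgk1 in anti-GBM under FGF23 (0.0551). No paired analysis was possible for the kidneys because the columns carry no replicate numbers. In PCKS the same-numbered slices correlated at 0.107, 0.105, -0.105 and 0.112, and differently numbered slices at -0.161 to 0.124. Not every same-numbered pair deviated together, and whether the numbers mark shared animals is not known. A fit with a replicate block called 0 of the 10. The cause of these shifts was not tested. The lowest count of the 10 genes in any library was 28, and groups of 3 or 4 limit the precision.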

Other observations

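Clock genes also stood apart by mouse among the anti-GBM kidneys, beside Per1. Ciart was at 18.7, 16.9, 2.4 and 5.1 CPM in the anti-GBM vehicle mice NTS5 to NTS8 and at 1.1, 1.1 and 23.5 CPM in the anti-GBM FGF23 mice, the last being NTS16, which also had the highest Per1. Arntl was at 3.6, 2.8, 6.3 and 6.0 CPM and at 7.8, 8.1 and 2.6 CPM in the same mice, low where Ciart was high. The time of day at which each mouse was killed is not stated in the sources used here, and its part in these values was not tested.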
